A study of Mus musculus with 16 samples.

Results

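*Pcp4* and *Krt16* are 2 of the 23356 genes in a table of RNA-seq values from mouse bone marrow-derived dendritic cells (BMDCs). They were chosen by their measured values, as the called genes that c-di-GMP raised most in wild-type BMDCs and as genes with some of the greatest falls in treated *Irf3/7*-/- BMDCs. Both contrasts therefore served the choice, and the values of these contrasts are given as a description. The table held 1 value per gene for each of 8 conditions, from 4 genotypes that were untreated (NT) or treated with c-di-GMP (CDG) for 18 h. The genotypes were wild-type (WT) C57BL/6, *Tmem173*-/-, *Irf1*-/- and *Irf3/7*-/-. *Tmem173* encodes STING, and the *Irf3/7*-/- cells were labelled as lacking *Irf3* and *Irf7* together. All cells were grown from bone marrow for 6 days with GM-CSF and IL-4 at 10 ng/ml each, and the labels give a c-di-GMP dose of 25 μg/ml. The labels list 2 samples per condition, which the authors combined before deposition, so the table holds no spread between replicates and no p-value was computed. Such cultures are mixed, and in a bulk measurement fewer cells of a type and less RNA per cell cannot be told apart.

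c-di-GMP is a cyclic dinucleotide made by bacteria, and STING is the receptor that binds it at the endoplasmic reticulum. STING recruits the kinase TBK1, which phosphorylates IRF3, and IRF3 and IRF7 drive the genes of the type I interferons. Interferons in turn induce IRF1, IRF7 and many other genes. *Pcp4* encodes PEP-19, a small protein with an IQ motif that binds calmodulin and alters how fast calcium exchanges with it, and it is best known in Purkinje cells of the cerebellum. *Krt16* encodes keratin 16, a type I keratin of the intermediate filaments of epithelia, which keratinocytes switch on in wounded or inflamed skin together with keratins 6 and 17. Neither gene is a textbook marker of dendritic cells.

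*Pcp4* lies on chromosome 16 at 96467606 to 96525793 on the plus strand, in coordinates of GRCm38, and its transcript of 641 bases comes from 3 exons. Its coding sequence is 189 bases long with the stop codon, and it is shown because this short message carried the greater of the treated values of the 2 genes. The capitals mark the 52 bases from the middle exon, at coding positions 10 to 61.

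*Pcp4* coding sequence: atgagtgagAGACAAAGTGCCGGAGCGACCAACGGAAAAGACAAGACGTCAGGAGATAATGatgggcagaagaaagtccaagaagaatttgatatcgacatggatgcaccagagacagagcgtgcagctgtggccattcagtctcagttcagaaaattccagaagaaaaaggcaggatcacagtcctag

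*Krt16* lies on chromosome 11 at 100246091 to 100248902 on the minus strand, and its transcript of 1565 bases comes from 8 exons. It sits in the cluster of type I keratin genes, whose members resemble each other closely. Of the 1531 windows of 35 bases in the *Krt16* transcript, 35 bases being the read length, 740 (48.3%) were also found in a transcript of another gene of the GENCODE annotation. The pseudogene *Gm11597* held 462 of these windows, *Krt14* 278, *Krt17* 26 and *Krt42* 4. The longest run shared with the coding sequence of *Krt17* had 55 bases and that shared with *Krt14* had 134 bases. These runs are shown, in capitals with 10 flanking bases on each side, because reads inside them could be given to either gene.

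*Krt16*, coding positions 1189 to 1263: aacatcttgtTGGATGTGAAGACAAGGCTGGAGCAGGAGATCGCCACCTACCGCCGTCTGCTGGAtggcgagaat

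*Krt17*, coding positions 1102 to 1176: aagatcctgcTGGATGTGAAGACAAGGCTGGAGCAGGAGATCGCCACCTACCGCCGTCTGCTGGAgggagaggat

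*Krt16*, coding positions 272 to 425: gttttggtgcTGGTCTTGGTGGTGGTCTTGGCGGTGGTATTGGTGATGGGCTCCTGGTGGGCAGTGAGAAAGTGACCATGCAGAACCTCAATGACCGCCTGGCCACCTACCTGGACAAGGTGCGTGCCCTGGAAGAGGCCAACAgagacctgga

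*Krt14*, coding positions 296 to 449: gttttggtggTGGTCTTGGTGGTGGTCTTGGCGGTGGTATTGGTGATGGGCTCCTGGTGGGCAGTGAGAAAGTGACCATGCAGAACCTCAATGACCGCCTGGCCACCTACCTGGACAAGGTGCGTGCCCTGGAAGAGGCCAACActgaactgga

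The table has no row for *Gm11597*, so the share of the *Krt16* value that it could hold was not tested. In *Pcp4*, 211 of the 607 windows of 35 bases (34.8%) were shared, all with *Igsf5*, a gene on the same strand whose GENCODE locus runs over that of *Pcp4*, from 96361794 to 96525580. *Igsf5* was listed at no more than 0.0540 FPKM in any condition.

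Values are in FPKM, the number of sequenced fragments for each kilobase of a transcript relative to the depth of sequencing, and the range after each value is the authors' confidence interval. In WT BMDCs, *Pcp4* was at 0.127 FPKM (0 to 0.310) without treatment, and treated cells had 317 FPKM (228 to 404). In *Irf1*-/- BMDCs it stood at 0.351 FPKM (0.0620 to 0.620) untreated and at 39.3 FPKM (29.1 to 49.5) treated. In *Tmem173*-/- BMDCs the levels were 0.180 FPKM (0 to 0.372) untreated and 0.309 FPKM (0.0620 to 0.558) treated. Thus *Pcp4* was high in treated WT cells, intermediate in treated *Irf1*-/- cells and near the bottom of the scale in *Tmem173*-/- cells. In BMDCs labelled *Irf3/7*-/- it was listed at 0.172 FPKM (0 to 0.372) untreated and at 0.128 FPKM (0 to 0.310) treated. Apart from treated WT and treated *Irf1*-/- BMDCs, the intervals of all other conditions overlapped one another, so no order can be read among them.

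*Krt16* stood at 0.0523 FPKM (0 to 0.127) in untreated WT BMDCs, and treatment with c-di-GMP brought it to 133 FPKM (102 to 163). In *Irf1*-/- BMDCs its levels were 0.0678 FPKM (0 to 0.127) untreated and 3.35 FPKM (2.39 to 4.32) treated. In BMDCs labelled *Irf3/7*-/- it was listed at 0 untreated and stood at 1.02 FPKM (0.610 to 1.42) after c-di-GMP. In *Tmem173*-/- BMDCs it was listed at 0 both untreated and treated. The order of the treated levels was therefore WT, *Irf1*-/-, *Irf3/7*-/- and *Tmem173*-/-, and the intervals of neighbours in this order did not overlap. The untreated levels of WT and *Irf1*-/- cells had overlapping intervals.

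**Figure D1:**
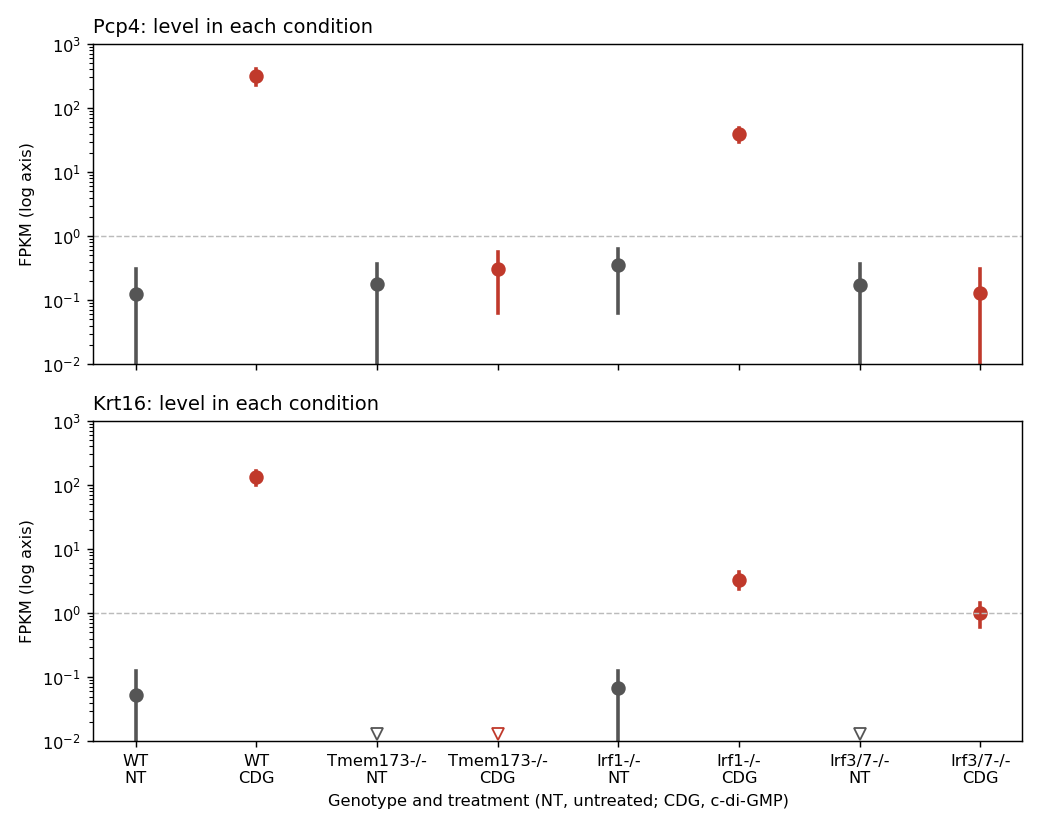
FPKM of *Pcp4* (upper panel) and *Krt16* (lower panel) on a log axis in the 8 conditions, with untreated cells in grey and c-di-GMP-treated cells in red. Points are the deposited values, vertical lines the authors' intervals (cut off at the bottom of the axis where they reach 0), open triangles conditions listed at 0, and the dashed line marks 1 FPKM. Treated WT cells stand at 317 and 133 FPKM, while treated *Irf1*-/- cells stand at 39.3 and 3.35 FPKM.

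The low values rested on very few fragments. The bounds of the intervals were whole multiples of a step of 0.0620 FPKM for *Pcp4* and 0.0254 FPKM for *Krt16*, with deviations of at most 0.00523 and 0.0140 of a step. Multiplied by the transcript lengths of 641 and 1565 bases, both steps gave 39.8, the value of 1 fragment on a common scale of about 25100000 fragments. On that scale the untreated WT values equalled 2.05 fragments of *Pcp4* and 2.06 of *Krt16*, and the treated WT values equalled 5116 and 5221 fragments. The treated *Irf1*-/- values equalled 634 fragments of *Pcp4* and 132 of *Krt16*, and 40.3 fragments of *Krt16* stood behind its value in treated cells labelled *Irf3/7*-/-. Treated WT cells thus held similar numbers of fragments of both genes, and the difference in FPKM follows the lengths of the transcripts.

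In WT BMDCs, the ratio of the treated to the untreated level was 2499 for *Pcp4* and 2534 for *Krt16*. The untreated levels rested on about 2 fragments, and the lower bound of the treated interval over the upper bound of the untreated one was 735 for *Pcp4* and 803 for *Krt16*. Calls of higher or lower were made for differences of more than 2-fold on the log2(FPKM + 0.1) scale with intervals apart, provided that either condition reached 1 FPKM. On this scale the difference was 10.45 for *Pcp4* and 9.77 for *Krt16*. Of the 11201 genes tested, 10.5% were called higher and 9.96% lower after c-di-GMP in WT cells, and the members were the first and second of the 1175 called higher. The choice of the members fixed this. Among all genes tested, called or not, they were at ranks 5 and 8 of the difference. Treated WT cells had *Pcp4* at rank 314 and *Krt16* at rank 722 of 23356 genes by FPKM. The next genes in the order of the rise, among those with at least 10 FPKM in treated WT cells, were *Rsad2*, an antiviral enzyme, at 8.25, *Gm14446* at 8.16, *Il31*, a cytokine of itch, at 7.02 and *Nts*, the precursor of neurotensin, at 6.98.

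The contrast within *Irf1*-/- BMDCs did not serve the choice of the members. There c-di-GMP treatment gave a call of higher for both genes, and for 9.67% of the 11164 genes tested. *Pcp4* differed by 6.45 and *Krt16* by 4.36 on the log2(FPKM + 0.1) scale, at ranks 16 and 78 of the 1080 genes called higher. The ratio of the treated to the untreated level was 112 for *Pcp4* and 49.4 for *Krt16*, and the ratio of the nearest bounds was 46.9 and 18.8. Both genes thus rose in BMDCs labelled *Irf1*-/-, to lower levels than in WT cells. *Irf1* itself was still detected in these cells, at 25.9 FPKM (19.0 to 33.3) untreated and 116 FPKM (82.8 to 149) treated.

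Within *Tmem173*-/- BMDCs neither gene reached 1 FPKM, so neither was tested. The *Pcp4* intervals of treated and untreated cells overlapped, and *Krt16* was listed at 0 in both. Within BMDCs labelled *Irf3/7*-/-, *Pcp4* also stayed under 1 FPKM in both conditions and was not tested. *Krt16* was called higher there, where 10.2% of the 11283 genes tested were called higher. Its rise from a listed 0 to 1.02 FPKM gives no fold change, and the treated level lay close to the minimum of 1 FPKM. With a minimum of 5 FPKM the gene was no longer tested in this contrast, nor within *Irf1*-/- BMDCs. *Krt16*, unlike *Pcp4*, thus had a measurable treated level in cells labelled *Irf3/7*-/-.

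Among treated cells, *Pcp4* in *Irf1*-/- BMDCs stood at 12.4% of its WT level, with a range of 7.20% to 21.7% from the bounds of both intervals. *Krt16* in the same cells stood at 2.53% of its WT level (1.46% to 4.24%). In BMDCs labelled *Irf3/7*-/-, *Pcp4* stood at 0.0403% of its WT level (0 to 0.136%) and *Krt16* at 0.771% (0.374% to 1.40%). Each gene thus kept a larger part of its WT level in *Irf1*-/- cells than in cells labelled *Irf3/7*-/-. The fall in cells labelled *Irf3/7*-/- served the choice, and the *Irf1*-/- level did not, so the choice favoured this order. Between the 2 genes, *Pcp4* kept the larger part in *Irf1*-/- cells and *Krt16* in cells labelled *Irf3/7*-/-. The ranges of the 2 genes did not overlap in either genotype. The ratio of *Pcp4* to *Krt16* in FPKM was 2.39 in treated WT cells and 11.7 in treated *Irf1*-/- cells. In treated *Tmem173*-/- BMDCs, *Pcp4* stood at 0.0974% of its WT level (0.0153% to 0.245%) and *Krt16* was listed at 0.

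Against treated WT cells, *Pcp4* and *Krt16* were both called lower in all 3 treated knockouts. All 3 contrasts share the treated WT value, by which the genes were chosen. In *Irf1*-/- cells the differences were -3.01 for *Pcp4* and -5.27 for *Krt16*, where 4.91% of genes were called lower. In cells labelled *Irf3/7*-/- they were -10.44 and -6.88, where 2.69% were called lower and 4.61% higher. In *Tmem173*-/- cells they were -9.60 and -10.37, where 13.5% were called lower. The value of *Krt16* against a listed 0 depends on the added 0.1 FPKM. Both genes were also called lower in treated cells labelled *Irf3/7*-/- than in treated *Irf1*-/- cells, by -7.43 for *Pcp4* and -1.62 for *Krt16*, where 3.22% of the 11235 genes tested were called lower. With a fold threshold of 4 this last call of *Krt16* was lost. The treated *Irf3/7*-/- value in this contrast also served the choice of the members, so the choice favoured a call of lower there. Both genes were thus called lower in treated cells labelled *Irf1*-/- as well as in those labelled *Irf3/7*-/-.

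The knockouts were checked on the targeted genes. *Tmem173* stood at 8.97 FPKM untreated and 7.49 treated in *Tmem173*-/- cells, against 103 and 118 FPKM in WT cells. *Irf1* stood below the WT level in cells labelled *Irf1*-/-, against 149 FPKM (113 to 185) and 245 FPKM (176 to 314) in WT cells, but rose there after c-di-GMP with intervals apart. *Irf7* stood at 1.07 and 4.97 FPKM in cells labelled *Irf3/7*-/-, against 15.2 and 687 FPKM in WT cells. *Irf3* went against its label after treatment. It stood at 7.74 FPKM in untreated cells labelled *Irf3/7*-/- against 19.9 FPKM in WT cells, but at 20.2 FPKM (14.8 to 25.7) in the treated ones against 15.8 FPKM (11.6 to 20.0) in treated WT cells. The value of a whole gene does not show whether the deleted exons are missing, and which exons had been removed is not given in the sources used here. Directions drawn from cells labelled *Irf3/7*-/- or *Irf1*-/- therefore rest on the labels. Dendritic cell markers were present, with the sum of 10 of them between 5024 and 9729 FPKM in every condition. Against treated WT cells, 4 of the 10 were called lower in *Irf1*-/-, 3 in *Tmem173*-/- and 1 in *Irf3/7*-/- cells. This stands beside 4.91%, 13.5% and 2.69% of all genes tested. In *Tmem173*-/- and in *Irf3/7*-/- cells 1 was called higher, beside 1456 of 11318 and 517 of 11209 genes tested.

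Genes of the type I interferon response are given for scale. All 28 genes of this list were called lower in treated *Tmem173*-/- than in treated WT BMDCs, 5 were called lower in treated *Irf1*-/- cells and 6 in treated cells labelled *Irf3/7*-/-. Over all genes tested, 13.5%, 4.91% and 2.69% were called lower in these 3 contrasts. The treated level of the 28 genes had a median of 81.2% of the WT level in *Irf1*-/- cells, from 28.6% for *Cmpk2* to 141% for *Irf7*. *Pcp4* and *Krt16*, at 12.4% and 2.53%, lay below all 28. Every such share is taken over the treated WT level by which the members were chosen, so the choice favoured low shares in all 3 knockouts. The fall in cells labelled *Irf3/7*-/- served the choice directly. In cells labelled *Irf3/7*-/- the median was 62.2%, from 0.724% for *Irf7*, itself a targeted gene, and 26.0% for *Oasl1* to 110% for *Zbp1*. *Pcp4* lay below all 28 there, and *Krt16* lay below all but *Irf7*. In *Tmem173*-/- cells the median was 1.47%, and *Pcp4* at 0.0974% lay next to *Oasl1* at 0.0986%. The median log2 difference over all genes tested was 0.0200 in *Irf1*-/- and -0.0223 in *Irf3/7*-/- cells.

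**Figure D2:**
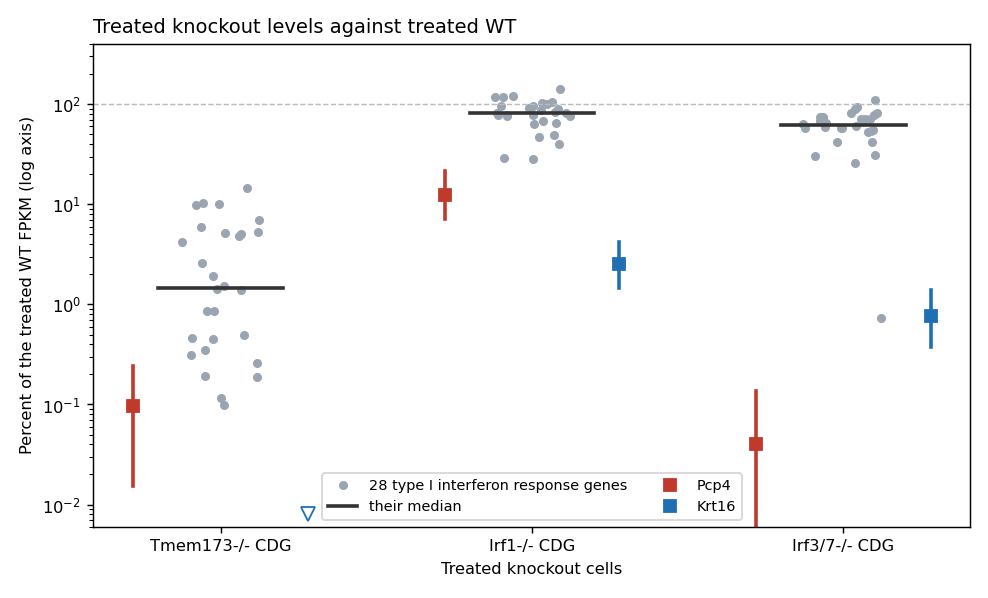
Treated knockout level as a percentage of the treated WT FPKM, on a log axis, for *Pcp4* (red squares), *Krt16* (blue squares) and 28 type I interferon response genes (grey points, with a black bar at their median). Vertical lines span the ranges from the authors' intervals, the open triangle marks *Krt16* listed at 0 in *Tmem173*-/- cells, and the dashed line marks the WT level. In *Irf1*-/- cells both members lie below the interferon response genes, whose median is 81.2%.

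Few other keratins were detected. Of the 27 other type I keratins in the table, 1 reached 1 FPKM in any condition, and 15 were listed at 0 throughout. This was *Krt17*, which keratinocytes of wounded skin switch on together with *Krt16*. *Krt17* was listed at 0 in untreated WT cells and stood at 3.59 FPKM (2.50 to 4.66) in treated WT cells. Among the treated knockouts *Krt17* was listed at 0 in *Tmem173*-/- cells. It stood at 0.0780 FPKM (0 to 0.158) in *Irf1*-/- cells and at 0.0185 FPKM (0 to 0.0526) in cells labelled *Irf3/7*-/-. *Krt17* stood at 2.71% of the *Krt16* level in treated WT cells, at 2.33% in treated *Irf1*-/- cells and at 1.81% in treated cells labelled *Irf3/7*-/-. The *Krt17* intervals of these knockouts reach 0, so the last 2 shares cannot be told from 0, and no constant share can be read. Given the shared run of 55 bases, the value of *Krt17* is uncertain, and whether it is *Krt16* reads was not tested. *Krt14*, with its longer shared run, stood at 0.228 FPKM in treated WT cells, 0.172% of the *Krt16* level.

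Keratins form filaments only as pairs of a type I and a type II protein. None of the 24 type II keratins in the table reached 1 FPKM in any condition. The highest was *Krt80* at 0.959 FPKM in untreated *Tmem173*-/- cells, and the 24 together summed to 0.270 FPKM in treated WT cells. *Krt6a*, a usual partner of keratin 16, was listed at 0 in every condition, and *Krt6b* was listed at no more than 0.0332 FPKM. The other intermediate filament genes held 13 members, of which 7 were tested in WT cells, where 2 fell after c-di-GMP and none rose. Over all genes tested in WT cells, 9.96% fell and 10.5% rose. *Nes*, encoding nestin, fell from 8.14 to 2.28 FPKM and *Lmnb1*, encoding lamin B1, from 51.5 to 10.7 FPKM. *Vim*, encoding vimentin, the main filament of leukocytes, stood at 1405 FPKM untreated and 2234 FPKM treated in WT cells and was not called.

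The 3 other small calmodulin binders with an IQ motif did not follow *Pcp4*. *Pcp4l1*, its closest relative, stayed between 0.0137 and 0.161 FPKM, and *Gap43* was listed at 0 in every condition. *Nrgn*, encoding neurogranin, stood at 1.38 FPKM in untreated and 1.47 FPKM in treated WT cells. It was called higher in treated cells labelled *Irf3/7*-/- than in treated WT cells, at 5.61 FPKM, where *Pcp4* was near 0. *Calm2* and *Calm3*, which encode calmodulin, the protein that PEP-19 binds, did not pass the rule in WT cells. *Calm2* stood at 191 and 175 FPKM and *Calm3* at 149 and 172 FPKM in untreated and treated WT cells. Treated WT cells thus held *Pcp4* transcripts, per length, above *Calm2* and above *Calm3*. They were not above calmodulin transcripts as a whole. The list of 7 calmodulin genes, of which 3 reached 1 FPKM, summed to 642 FPKM in untreated and 731 FPKM in treated WT cells. Most of the rest of this sum came from a further gene of the list, which is not named here. Its level in treated WT cells thus lay above that of *Pcp4*. Of 29 genes of calmodulin-dependent enzymes and calcium handling, 21 were tested in WT cells, 2 fell and none rose. Over all genes tested there, 9.96% fell and 10.5% rose, so the share that fell was near that of all genes. The 2 genes were *Camkk1*, from 2.39 to 0.888 FPKM, and *Camk1d*, from 3.61 to 1.39 FPKM, both kinases activated through calmodulin. The median log2 difference of this list was 0.0349, beside 0.00334 over all genes tested in WT cells.

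**Figure D3:**
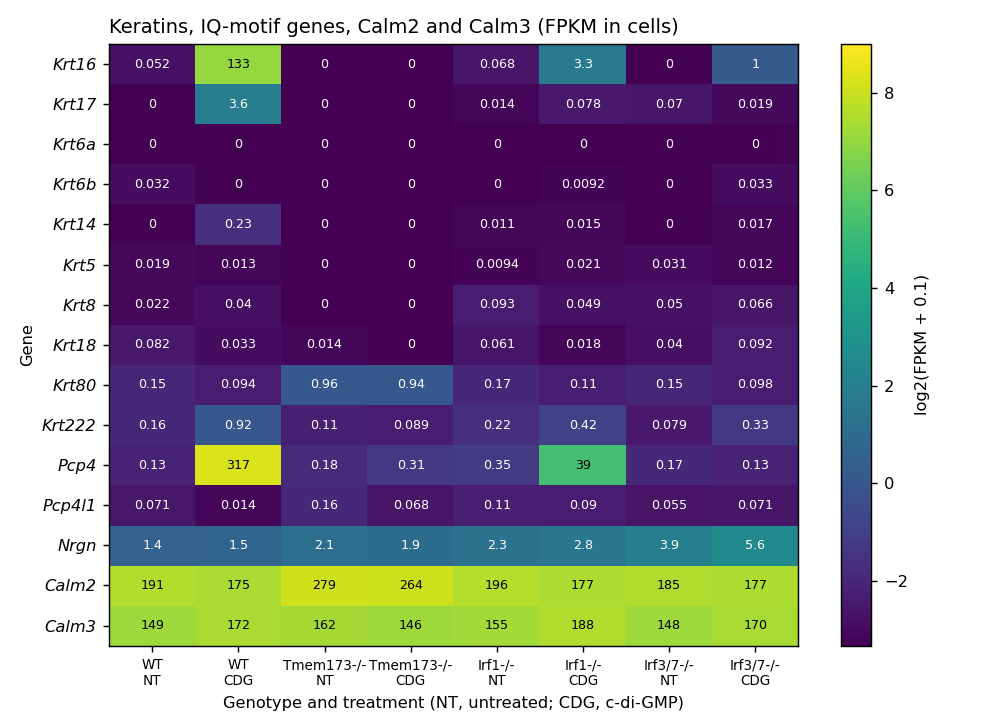
FPKM of *Krt16* with other keratins, and of *Pcp4* with other IQ-motif genes, *Calm2* and *Calm3*, in the 8 conditions. Colour gives log2(FPKM + 0.1) and each cell shows the FPKM, with 0 where the gene was listed at 0. *Krt16* and *Pcp4* stand out in treated WT cells at 133 and 317 FPKM, while *Calm2* and *Calm3* keep similar levels across conditions.

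Markers of other cells were set beside these values. Among 14 epithelial markers, 3 reached 1 FPKM in any condition, and their sum was 51.4 FPKM in untreated and 8.69 FPKM in treated WT cells. *Cdh1*, which dendritic cells also express, made up most of it and fell from 49.4 to 6.06 FPKM. Of the 2 epithelial markers tested in WT cells, *Cdh1* was called lower, and the other, which is not named here, was not called. Over all genes tested in WT cells, 9.96% were called lower. Within cells labelled *Irf3/7*-/-, 1 of the 2 tested was called higher and 1 lower, beside 1149 and 866 of 11283 genes tested. *Epcam* reached 1 FPKM in untreated *Irf1*-/- cells alone, and the keratins of simple and basal epithelium, *Krt8*, *Krt18*, *Krt19*, *Krt5* and *Krt14*, stood at no more than 0.228 FPKM in any condition. Among 11 epidermal barrier and stress genes, 1 reached 1 FPKM and 5 were listed at 0 throughout. It was *Sprr1a*, at 0.885 FPKM untreated and 1.08 FPKM treated in WT cells. *Sprr1a* was called higher after treatment in *Irf1*-/- cells, from 0.448 to 2.35 FPKM. It was called lower than in treated WT cells in treated *Tmem173*-/- cells, where it was listed at 0, and in treated cells labelled *Irf3/7*-/-, at 0.237 FPKM. Among 10 neuronal markers, 2 reached 1 FPKM, namely *Syn1* and *Tubb3*, and their sum was 12.8 FPKM in untreated and 6.50 FPKM in treated WT cells. *Calb1*, a Purkinje cell marker, was listed at 0 throughout, and *Pcp2*, another, stood at no more than 0.365 FPKM.

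Markers of T and NK cells differed between the genotypes. Their sum over 12 genes was 777 FPKM in untreated and 1011 FPKM in treated WT cells, between 1.01 and 1.12 FPKM in *Tmem173*-/- cells, and 22.8 and 56.9 FPKM in *Irf1*-/- cells. In cells labelled *Irf3/7*-/- the sum was 822 FPKM untreated and 3461 FPKM treated. The list includes the cytokine gene *Ifng*, whose values are given below, so a sum can rise without most of its genes. The differences between treated genotypes, however, ran through the list. Against treated WT cells, all 9 genes tested were called lower in *Tmem173*-/- and in *Irf1*-/- cells, beside 13.5% and 4.91% of all genes tested. All 9 tested were called higher in treated cells labelled *Irf3/7*-/-, beside 4.61% of all genes tested. Of 10 genes tested in WT cells, 1 was called higher and 2 lower after c-di-GMP, beside 10.5% and 9.96% of all genes. Their median log2 difference was -0.454 in WT cells, and 0.874 for the genes tested within cells labelled *Irf3/7*-/-. These sums were high in untreated WT cells and in treated cells labelled *Irf3/7*-/-, where *Pcp4* stood at 0.127 and 0.128 FPKM. Among treated WT, *Irf1*-/- and *Tmem173*-/- cells they had the same order as *Pcp4* and *Krt16*, and their part in the values of these genes was not tested. Of the 9 stromal and endothelial markers, 4 reached 1 FPKM in any condition. The 9 summed to 20.0 FPKM in untreated and 27.7 FPKM in treated WT cells. Of the 3 tested in WT cells, only *Col1a2*, a collagen gene, was called higher after treatment, at 6.78 FPKM against 0.0208 FPKM untreated. It stood at 1.04 FPKM in treated *Irf1*-/- cells and at 0.0361 FPKM in treated cells labelled *Irf3/7*-/-, and *Col1a1* and *Col3a1* stayed under 1 FPKM in every condition.

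The surroundings of the genes were compared in WT cells. Of the 10 genes within 500 kb of *Pcp4*, 5 were tested, 1 rose and 2 fell, and over all genes tested 10.5% rose and 9.96% fell. Distances follow the loci of the deposited table. *Itgb2l*, an integrin beta chain gene 24.0 kb away, rose from 3.69 to 8.22 FPKM. *Igsf5*, whose locus in the table (96361757 to 96422121) ends 45.5 kb from *Pcp4* and is shorter than that of GENCODE, and *B3galt5* at 148 kb on the same side, and *Dscam* at 66.3 kb on the other side, stayed under 1 FPKM in both conditions. *Hmgn1*, encoding a nucleosome-binding protein, fell from 70.5 to 26.3 FPKM and *Psmg1*, a proteasome assembly chaperone gene, from 22.4 to 8.93 FPKM. Of the 54 genes within 500 kb of *Krt16*, 13 were tested, 2 rose and 2 fell, which are shares near those over all genes. *Krt17* at 7.32 kb and *Dhx58*, a viral RNA sensor of the interferon response at 446 kb, were the genes that rose. *Jup*, encoding plakoglobin, fell from 8.85 to 2.21 FPKM and *Nt5c3l* from 8.40 to 3.88 FPKM. *Krt14*, *Krt9* and *Krt19* on one side and *Krt42* on the other stayed under 1 FPKM, and *Eif1*, encoding a translation initiation factor, stood at 282 and 347 FPKM with overlapping intervals.

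**Figure D4:**
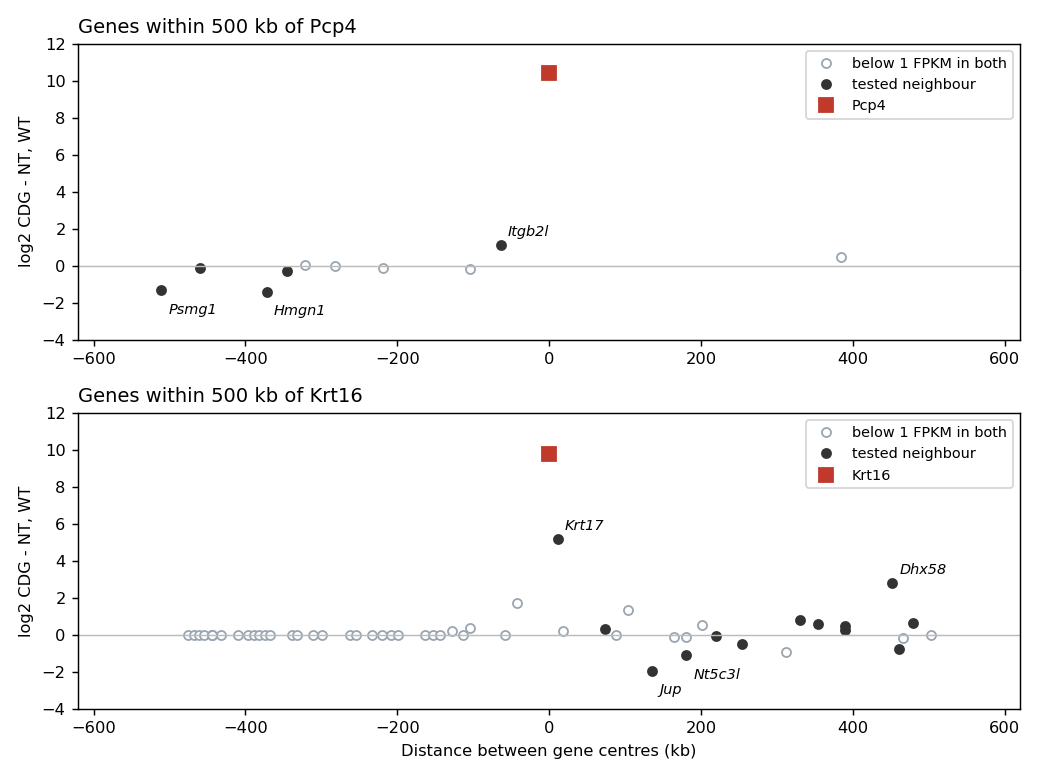
log2(FPKM + 0.1) difference between treated and untreated WT cells for genes within 500 kb of *Pcp4* (upper panel) and *Krt16* (lower panel), against the distance between gene centres in kb. Filled points are tested genes, open points genes under 1 FPKM in both conditions, red squares the members, and names mark called neighbours. The members stand at 10.45 and 9.77, and *Krt17* and *Dhx58* are the neighbours of *Krt16* that rose.

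The promoter of *Pcp4* was taken from the RefSeq sequences of GRCm38.p6, and *Krt16* and *Krt17* have no entry there. The 250 bases before the start of *Pcp4*, chr16:96467356-96467605 on the plus strand, are shown beside those of *Rsad2*, the next gene in the order of the rise, chr12:26456453-26456702 on the minus strand. Both strands were searched for GAAANNGAA, a core of paired IRF sites, TTCNNNGAA, a core of STAT sites, TGANTCA, the AP-1 motif, and the NF-kB consensus. Capitals mark the matches.

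*Pcp4* promoter: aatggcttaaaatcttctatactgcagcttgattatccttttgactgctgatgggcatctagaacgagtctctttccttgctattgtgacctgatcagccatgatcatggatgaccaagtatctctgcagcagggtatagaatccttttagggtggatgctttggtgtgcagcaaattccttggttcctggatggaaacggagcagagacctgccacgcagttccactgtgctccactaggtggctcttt

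*Rsad2* promoter: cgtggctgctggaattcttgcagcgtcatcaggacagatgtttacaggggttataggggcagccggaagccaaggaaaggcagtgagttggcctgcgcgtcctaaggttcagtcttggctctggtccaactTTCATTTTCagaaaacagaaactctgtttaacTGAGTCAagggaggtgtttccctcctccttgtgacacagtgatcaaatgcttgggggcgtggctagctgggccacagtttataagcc

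None of these letters was found in the *Pcp4* window. The *Rsad2* window held GAAANNGAA on the strand opposite to the gene, starting 119 bases before the gene's start, and TGANTCA 87 bases before it. Among 32851 promoter windows of the same length, 7.13% held GAAANNGAA, 7.02% held TTCNNNGAA, 6.75% held TGANTCA and 3.90% held the NF-kB consensus. A match is a description of letters, and its absence says nothing about the binding of a factor at this or another site.

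The genes with the pattern most like that of each member were found by Pearson's r of log2(FPKM + 0.1) over the 8 conditions, among 7406 genes with at least 10 FPKM in one condition. Most like *Pcp4* were *Bmp8b*, a bone morphogenetic protein gene, with r = 0.994, *Dcakd* with 0.990, *Mir425* with 0.983, *Snord35b* with 0.980 and *Ehmt2*, a histone methyltransferase gene, with 0.975. *Bmp8b* stood at 0.0226 FPKM in untreated and 12.5 FPKM in treated WT cells, at 3.55 FPKM in treated *Irf1*-/- cells and at 0.0192 FPKM in treated cells labelled *Irf3/7*-/-. Like *Pcp4*, it was highest in treated WT and second in treated *Irf1*-/- cells, whereas *Dcakd*, from 8.77 to 14.8 FPKM, and *Ehmt2*, from 36.9 to 57.5 FPKM, moved little in WT cells. *Mir425* and *Snord35b* are short RNAs, for which FPKM is unstable, and were listed at 0 in the 6 conditions other than treated WT and treated *Irf1*-/- cells.

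Most like *Krt16* were *Intu*, a gene of cilium assembly, with r = 0.989, *Kdm4a*, a histone demethylase gene, with 0.985, *Il31* with 0.985, *Gcc1*, encoding a Golgi protein, with 0.982 and *Myo10*, a myosin gene, with 0.980. *Intu* stood at 0.808 and 21.6 FPKM in untreated and treated WT cells, and at 4.03 and 3.01 FPKM in treated *Irf1*-/- cells and in treated cells labelled *Irf3/7*-/-. *Il31* was listed at 0 in untreated and stood at 12.9 FPKM in treated WT cells, at 2.15 FPKM in treated *Irf1*-/- cells and at 0.247 FPKM in treated cells labelled *Irf3/7*-/-. The correlation of *Pcp4* with *Krt16* was 0.914, at rank 54 of the genes most like *Pcp4* and at rank 136 of those most like *Krt16*. The members were chosen on part of this pattern, the 8 points share their libraries, and other measures of likeness named other genes.

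**Figure D5:**
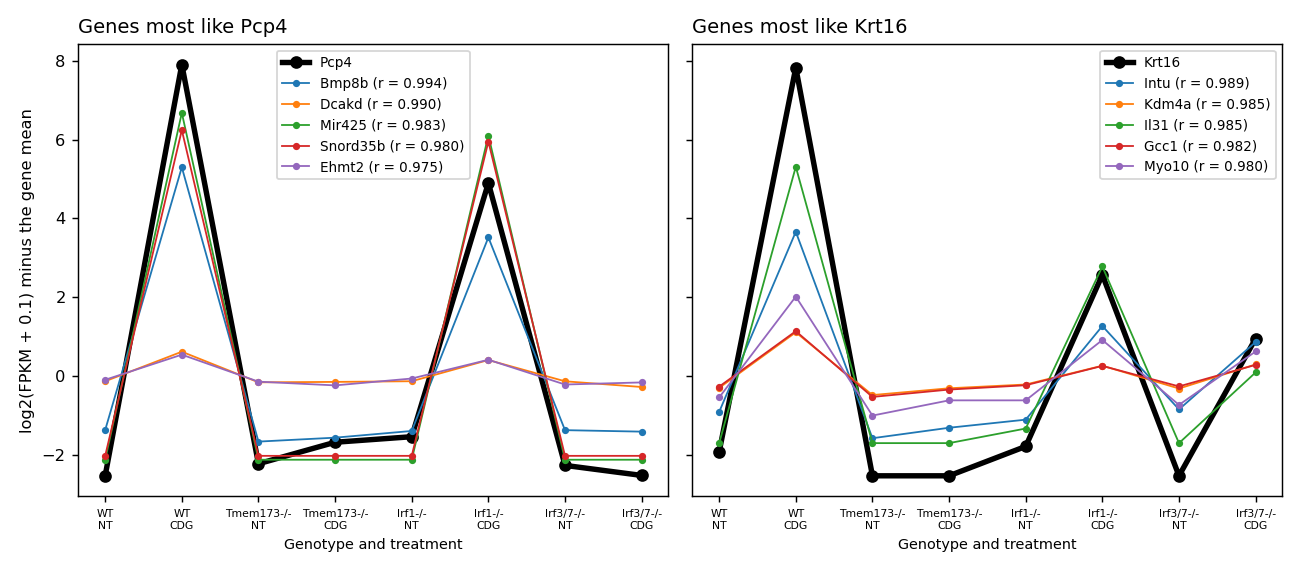
log2(FPKM + 0.1) minus the gene's mean over the 8 conditions, for *Pcp4* (left, black) and *Krt16* (right, black) with the 5 genes of highest Pearson's r to each. All peak in treated WT cells, while the size of the change differs between the genes, from 0.0226 to 12.5 FPKM in *Bmp8b* against 8.77 to 14.8 FPKM in *Dcakd*.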

How the data were processed

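Stranded mRNA libraries were made from 2 listed samples of each of 8 conditions and sequenced in pairs of 35 bases. With Cuffdiff (1.06 in the submitters' processing notes) the authors combined replicates and deposited 1 FPKM, the bounds of its interval and a status per gene and condition. For 23245 genes every status was OK. The aligner and the strand setting of that run are not given in the sources used here, while the paper names an opposing-strand setting for its separate work in SeqMonk. Those notes list mm9, but of 21519 gene symbols matched to RefSeq of GRCm38.p6, 98.9% had overlapping positions and 62.7% shared a start or end, so coordinates are given in GRCm38. A set of 4 columns matches no listed sample and was not used. The labels' dose is given, and the paper's legends state a higher one.

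The members and all gene lists were chosen with earlier results of these data known. Values were compared as log2(FPKM + 0.1) in 11 comparisons. A gene was tested with at least 1 FPKM in one condition and the status OK in both, and called at over 2-fold with intervals apart. This rule was tested on simulated data. Depth per sample is unknown, and for 4723 genes with at least 10 FPKM everywhere the median half-width of the interval was between 25.2% and 25.7% of the value. Named genes were the members, targeted genes, genes next in rank, the 5 most like each member, the 3 nearest on each side and called ones within 500 kb, and in each list up to 4 called genes with the largest change in WT cells and the relatives of the members. Genes named for an extreme value or as a defining marker were picked after values were seen. Not every gene of the lists is reported here. Transcripts came from GENCODE M21. The tools were matplotlib 3.10.9, pandas 2.3.3, numpy 2.4.6, scipy 1.17.1 and python 3.11.15.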

Additional observations from a re-analysis of the deposited data

How the results depend on the processing

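The calls of both members were recomputed in 11 comparisons under 9 alternatives: no filter, a minimum of 5 FPKM, a fold threshold of 1.5 or 4, pseudocounts of 1 and 0.01 FPKM, median centring, the fold change alone, and a z from the interval widths. Of 198 recomputed values, 194 kept their direction and their side of the rule, and none changed direction. These 198 include comparisons in which a member stayed under 1 FPKM and was not tested, where little could change. They also include both contrasts that served the choice, so the count does not measure how firm the calls are. The 4 calls lost were all of *Krt16*. With a minimum of 5 FPKM it was no longer tested within *Irf1*-/- cells (4.36), within *Irf3/7*-/- cells (3.49) or between treated *Irf3/7*-/- and *Irf1*-/- cells (-1.62), since both of its values lay under that minimum. The last call was also lost with a fold threshold of 4 (-1.62), which its size does not reach. The share of the WT log2 rise that *Krt16* kept depended on the pseudocount: it was 35.7% in *Irf3/7*-/- cells, but 14.5% with a pseudocount of 1 FPKM and 60.5% with 0.01 FPKM. In *Irf1*-/- cells it was 44.7%, and 29.0% with a pseudocount of 1 FPKM, while *Pcp4* kept 61.7%. The shares are therefore not used in the comparisons above. Of the 5 genes most like *Pcp4*, 3 remained with a pseudocount of 1 FPKM and 0 by rank correlation, and of those most like *Krt16*, 2 and 0. The count of genes called in WT cells fell from 2291 to 592 with a fold threshold of 4. No paired analysis was possible because the deposited table holds 1 combined value per condition, for which reason no replicate could be left out either. Values under 1 FPKM rest on few fragments, so differences among them were not detectable at this depth.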

Other observations

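The type I interferon genes that were detected moved in different directions in cells labelled *Irf3/7*-/-. *Ifnb1*, encoding interferon beta, was listed at 0 in untreated WT cells and stood at 2.93 FPKM in treated WT cells, at 3.53 FPKM in treated *Irf1*-/- cells and at 22.6 FPKM in treated cells labelled *Irf3/7*-/-. *Ifna4*, an interferon alpha gene, stood at 3.53, 9.37 and 0.0484 FPKM in the same conditions. The other 11 type I interferon genes in the table stayed under 1 FPKM in every condition. *Ifng*, encoding interferon gamma, stood at 34.6 FPKM in untreated and 299 FPKM in treated WT cells, at 25.5 FPKM in treated *Irf1*-/- cells and at 1155 FPKM in treated cells labelled *Irf3/7*-/-. Of the 14 genes of the interferon-gamma and IRF1 response, 10 were called higher in treated than in untreated WT cells, where 10.5% of all genes tested were called higher. Against treated WT cells, 9 of the 14 were called lower in *Irf1*-/- cells, beside 4.91% of all genes tested. In cells labelled *Irf3/7*-/-, 3 were called lower and 1 higher, beside 2.69% and 4.61% of all genes tested. *Ubd*, encoding a ubiquitin-like modifier, stood at 137 FPKM in treated WT cells, at 0.895 FPKM in treated *Irf1*-/- cells and at 15.3 FPKM in treated cells labelled *Irf3/7*-/-, the reverse of the order of the members in these 2 knockouts.

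Genes of neutrophils and mast cells summed to 1364 FPKM in *Tmem173*-/- cells without treatment, to 1085 FPKM in treated *Tmem173*-/- cells and to between 120 and 219 FPKM in the conditions of the other genotypes. *Nts* stood at 30.3 FPKM in treated WT cells, at 13.4 FPKM in treated *Irf1*-/- cells and at 0.755 FPKM in treated cells labelled *Irf3/7*-/-, the same order as that of *Pcp4* and *Krt16*. It was named for its rank in both contrasts that chose the members, which favoured this order.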
